A study of Mus musculus with 27 samples.

Results

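The 44 genes described here encode subunits of the oxidative phosphorylation machinery: 24 of respiratory complex I, 4 of complex II, 4 of complex III, cytochrome c itself, 6 of complex IV and 5 of complex V, the ATP synthase. They were taken by name, with earlier results of these data known, out of 22367 protein-coding genes of the GENCODE vM1 annotation (mouse assembly mm9, NCBIM37). Regions marked by histone H3 lysine 4 (H3K4) methylation in the mouse heart at E11.5 (E, embryonic day) were assigned to a gene when they overlapped its body or lay within 5 kb of one of its transcription start sites (TSS), which gave 234 of 358833 regions. The study asked whether loss of KMT2D, an H3K4 methyltransferase, in heart muscle changed H3K4 methylation.

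Both genotypes were C57BL/6 E11.5 hearts carrying *Tnnt2::Cre* and 1 copy of the mTmG Cre reporter. Controls were *Tnnt2::Cre; Kmt2d fl/+; mTmG/+*, and mutants were *Tnnt2::Cre; Kmt2d fl/fl; mTmG/+*, so controls also had 1 floxed *Kmt2d* copy open to deletion. The *Tnnt2* promoter drives Cre in heart muscle cells, whereas whole hearts, with their endothelial, epicardial and blood cells, went into the pools, 3 for each genotype with 30 hearts in each pool. Of 27 libraries in 9 groups of 3, 24 were input or H3K4me1, H3K4me2 and H3K4me3 ChIP-Seq from these hearts. The other 3, KMT2D ChIP-Exo from cardiomyocytes, were not analysed here.

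The deposited lists hold positions only: 358833 merged regions from all 3 marks, 2730 regions with decreased H3K4me1 in mutants and 6699 with decreased H3K4me2, both as called by the authors. The stated threshold was a false discovery rate below 0.1, but the deposited H3K4me2 list is longer than the text of the study gives, so that its own threshold is not certain. They give no read count, no value per replicate and no measure of how large a decrease was. Depth is therefore unknown and no test between genotypes could be made, so the values below are counts and widths of called regions. Intervals are 95% Wilson intervals, which treat genes as independent and cover counting error only, not variation between pools. The merged list does not say which mark made a region, and a region outside a decreased list may still have changed. Loss of *Kmt2d* in the mutant hearts could not be checked from these lists. All 8 cardiomyocyte marker genes had a TSS inside a merged region, with a median region width of 14990 bp, as had all 4 endothelial, all 4 epicardial and 3 of 4 erythroid markers. Of 6 markers of other tissues, 2 had one. The TSS region was in the H3K4me2 list for 3 of the 8 cardiomyocyte markers and for none of the endothelial, epicardial and erythroid ones, beside 29.2% of coding genes. These 3 groups had narrower TSS regions, with medians of 5740, 7730 and 4180 bp, and wide regions were called more often. Of other coding genes with a TSS region of 8760 bp or more, 47.4% were called. The markers were not set beside genes of like width. Counting any assigned region, the H3K4me2 list held 2 of the 4 erythroid markers, *Klf1* and *Hba-a1*, and again 3 of the 8 cardiomyocyte ones.

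Oxidative phosphorylation is how mitochondria turn the energy of nutrients into ATP. Complexes I and II take electrons from NADH and succinate, complex III passes them to cytochrome c, and complex IV hands them to oxygen; complexes I, III and IV pump protons, and complex V uses the returning protons to make ATP. Most subunits are encoded in the nucleus, as are all the genes described here. H3K4me2 is found at promoters and enhancers of active genes, and H3K4me1 mainly at enhancers.

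Every one of the 44 genes had a TSS inside a merged region, against 15752 of all coding genes (70.4%). The TSS lay inside a region with decreased H3K4me2 for 18 of the 44 (40.9%, 95% interval 27.7-55.6), beside 29.2% of the coding genes with a marked TSS. Counting any assigned region, 20 of the 44 had decreased H3K4me2 (45.5%, 31.7-59.9), beside 28.7% of coding genes with an assigned region. None of the 44 had a TSS inside a region with decreased H3K4me1, which allows a share of up to 8.03% by the Wilson interval, beside 1.29% of coding genes. Decreased H3K4me1 lay in some assigned region of 2 of the 44 (4.55%, 1.26-15.1), *Ndufv1* and *Ndufa10*, beside 7.08% of coding genes. The lower bound for decreased H3K4me2 over the TSS, 27.7%, lay just below the share of coding genes, and the share for any decreased H3K4me1 lay below its background but inside its wide interval.

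The region holding a TSS was also wider for these genes than for most. Its median width was 4380 bp (quartiles 3395 and 5630) for the 44 genes and 3580 bp (quartiles 2280 and 5620) for coding genes, and it ranged from 1880 bp at *Cox7a1* to 28900 bp at *Atp5d*. The first quartile differed most, so that short regions were scarce among these genes. Among the 44, regions with decreased H3K4me2 had a median of 4560 bp and the rest 4280 bp, a smaller gap than the 4620 and 3240 bp of coding genes as a whole.

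**Figure D1:**
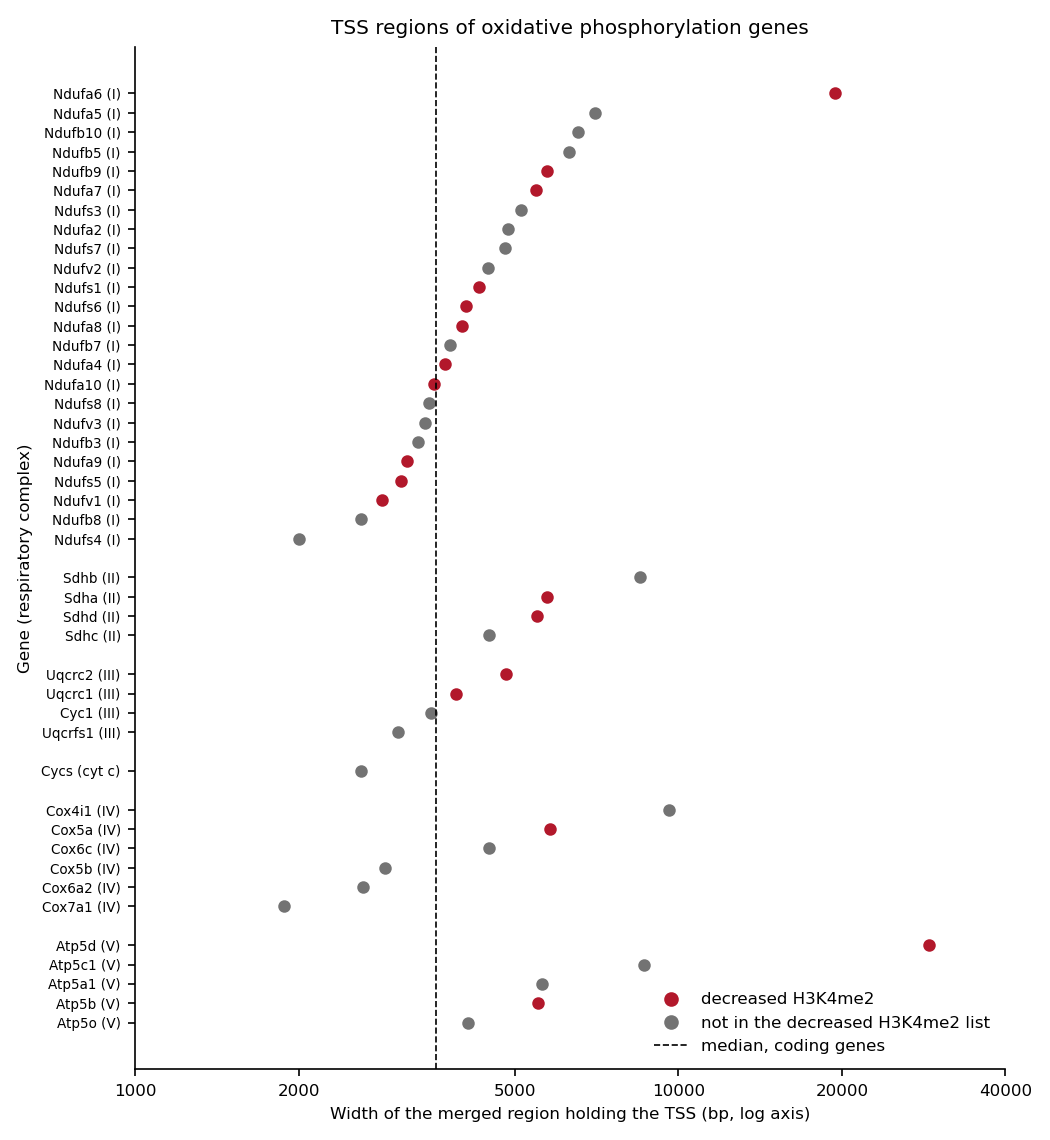
Width in bp (log axis) of the merged region holding the TSS of each of the 44 genes, grouped by respiratory complex, with red points for regions with decreased H3K4me2 and grey points for the rest; the dashed line is the median of coding genes, 3580 bp. Red points run from 2840 bp at *Ndufv1* to 28900 bp at *Atp5d*, and in complex IV only *Cox5a* is red.

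The 250 bases before the start of transcription of 8 genes are shown. The first 6 named here span the range of outcomes. *Atp5d* and *Ndufv1* had the widest and the narrowest TSS region with decreased H3K4me2, *Cox4i1* had the widest TSS region in neither list, *Ndufa10* had decreases of both marks, and *Cox6a2* and *Cox7a1* are the muscle isoforms. *Sdha* and *Uqcrc1*, the called genes with more than 1 NRF1 core between 250 bases before and 50 after the TSS, were added after their values were seen. Sequences were read 5′ to 3′ on the gene's own strand from mm9, and capitals mark matches, on either strand, to any of 6 short motifs: the NRF1 core CGCANGCG, the ETS core CCGGAAG, the YY1 core AAGATGG, the nuclear receptor element AAGGTCA, the CCAAT box CCAAT and the Sp1 box GGGCGG. Neighbouring matches may overlap and then form 1 run of capitals.
Atp5d (chr10:79603952-79604201, plus strand): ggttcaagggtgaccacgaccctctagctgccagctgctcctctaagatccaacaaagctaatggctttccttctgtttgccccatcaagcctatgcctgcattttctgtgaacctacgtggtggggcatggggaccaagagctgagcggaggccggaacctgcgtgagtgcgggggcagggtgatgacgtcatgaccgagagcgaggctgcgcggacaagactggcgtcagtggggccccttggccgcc
Ndufv1 (chr19:4012807-4013056, minus strand): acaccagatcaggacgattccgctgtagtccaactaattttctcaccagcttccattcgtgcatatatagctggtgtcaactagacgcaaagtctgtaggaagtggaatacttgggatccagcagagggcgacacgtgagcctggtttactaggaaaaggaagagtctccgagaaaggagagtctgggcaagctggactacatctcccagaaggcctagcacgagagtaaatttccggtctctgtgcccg
Sdha (chr13:74487729-74487978, minus strand): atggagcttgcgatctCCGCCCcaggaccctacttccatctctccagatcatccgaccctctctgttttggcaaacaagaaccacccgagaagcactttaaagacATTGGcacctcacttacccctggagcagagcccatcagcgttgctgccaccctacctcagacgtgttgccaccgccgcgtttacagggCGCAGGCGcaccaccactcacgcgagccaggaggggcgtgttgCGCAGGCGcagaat
Uqcrc1 (chr9:108838411-108838660, plus strand): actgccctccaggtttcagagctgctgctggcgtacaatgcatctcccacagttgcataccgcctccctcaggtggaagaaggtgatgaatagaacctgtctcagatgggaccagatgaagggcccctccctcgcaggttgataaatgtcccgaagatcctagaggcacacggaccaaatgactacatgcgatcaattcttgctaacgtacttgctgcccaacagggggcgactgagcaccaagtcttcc
Ndufa10 (chr1:94370438-94370687, minus strand): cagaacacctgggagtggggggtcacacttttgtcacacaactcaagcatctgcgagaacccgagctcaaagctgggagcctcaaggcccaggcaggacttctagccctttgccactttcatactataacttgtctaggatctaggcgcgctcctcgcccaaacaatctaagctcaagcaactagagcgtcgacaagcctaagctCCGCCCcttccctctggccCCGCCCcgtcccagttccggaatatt
Cox4i1 (chr8:123191940-123192189, plus strand): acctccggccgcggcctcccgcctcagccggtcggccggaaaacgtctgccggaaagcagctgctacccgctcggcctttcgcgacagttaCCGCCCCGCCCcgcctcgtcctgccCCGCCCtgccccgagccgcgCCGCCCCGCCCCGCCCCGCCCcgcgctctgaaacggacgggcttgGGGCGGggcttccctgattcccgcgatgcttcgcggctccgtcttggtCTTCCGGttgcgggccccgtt
Cox6a2 (chr7:135349881-135350130, minus strand): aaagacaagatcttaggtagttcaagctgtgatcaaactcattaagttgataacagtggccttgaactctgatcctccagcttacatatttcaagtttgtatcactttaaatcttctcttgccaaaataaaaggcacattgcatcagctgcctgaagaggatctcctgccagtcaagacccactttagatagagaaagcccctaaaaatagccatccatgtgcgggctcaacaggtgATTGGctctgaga
Cox7a1 (chr7:30968940-30969189, plus strand): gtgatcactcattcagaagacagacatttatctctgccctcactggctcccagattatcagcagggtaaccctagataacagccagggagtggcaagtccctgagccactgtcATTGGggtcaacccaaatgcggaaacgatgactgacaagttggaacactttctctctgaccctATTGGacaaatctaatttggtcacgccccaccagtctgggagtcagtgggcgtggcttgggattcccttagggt

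In these windows *Sdha* held 2 matches to the NRF1 core, starting 57 and 14 bases before the TSS, and *Cox4i1* held 8 overlapping or neighbouring Sp1 boxes and an ETS core. *Cox6a2* and *Cox7a1* held CCAAT boxes only, and *Atp5d*, *Ndufv1* and *Uqcrc1* held no match there. A match is a run of letters, not a measured binding site, and a window without one says only that these letters are absent from it.

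Complex I, the NADH dehydrogenase, had 11 of its 24 genes with decreased H3K4me2 over the TSS (45.8%, 27.9-64.9). They included *Ndufv1*, the NADH-binding flavoprotein, with a region of 2840 bp (chr19:4011026-4013865) that reached 1059 bp upstream and 1780 bp downstream of the TSS. They also included *Ndufs1*, the large iron-sulphur subunit, at 4300 bp, and *Ndufs6*, an accessory subunit, at 4060 bp. The regions of *Ndufs5* (3080 bp), *Ndufa9* (3160 bp) and *Ndufa10* (3540 bp), all accessory subunits, were called too. The other called genes were *Ndufa4* (3720 bp), *Ndufa7* (5460 bp), *Ndufa8* (4000 bp), *Ndufb9* (5740 bp) and *Ndufa6*. The product of *Ndufa4* was first assigned to complex I and is now placed with complex IV. It is counted with complex I throughout, so the counts of both complexes rest on the earlier assignment.

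*Ndufa6*, an accessory subunit, had the widest region of complex I, 19460 bp (chr15:82167126-82186585). It covered the whole gene and ran 17595 bp past the TSS, and it also held TSSs of other genes, *1500032L24Rik* and *Fam109b* among them. Which of these promoters carried the decrease cannot be told apart from a single interval.

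The complex I genes outside the list had a median TSS region of 4460 bp, not narrower than the 4000 bp of those in it. Wide regions outside it belonged to *Ndufa5* (7020 bp), *Ndufb10* (6540 bp) and *Ndufb5* (6300 bp), and the narrowest to *Ndufs4* (2000 bp), an accessory subunit, and *Ndufb8* (2600 bp). *Ndufs7* (4800 bp), *Ndufs8* (3480 bp) and *Ndufv2* (4460 bp), which carry iron-sulphur clusters, were also outside it at the TSS. The calls thus fell on both sides within the electron-carrying core of the complex.

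Away from the TSS, decreased regions in complex I were few. *Ndufv2* had 1, a 60-bp intronic region 19434 bp downstream of its TSS (chr17:66431406-66431465), the width of the narrowest merged regions. Its plus-strand sequence is shown because the call of this member for any decreased H3K4me2 rests on it alone; each of its 29 words of 32 bases occurs once in the assembly.
Ndufv2 intronic region: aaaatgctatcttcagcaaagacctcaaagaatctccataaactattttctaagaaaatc

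*Ndufa10* had an intronic region of 1240 bp with decreased H3K4me1, 30952 bp downstream of its TSS (chr1:94338246-94339485), and its TSS region (chr1:94368066-94371605) was in the H3K4me2 list. The H3K4me1 region of *Ndufv1*, 7120 bp (chr19:3998526-4005645), lay beyond the 3′ end of the gene and 7161 bp downstream of the main TSS, and held TSSs of *Doc2g* and *Nudt8*. It was assigned only through the starts of retained-intron transcripts inside *Ndufv1*. In neither gene did the 2 decreases fall on the same region.

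In complex II, the succinate dehydrogenase, *Sdha* and *Sdhd* were in the H3K4me2 list and *Sdhb* and *Sdhc* were not (2 of 4). *Sdha*, the flavoprotein that oxidises succinate, had a region of 5720 bp (chr13:74484186-74489905) that also held the *Ccdc127* TSS. *Sdhd*, a membrane anchor, had 5480 bp and shared it with *Timm8b*, a mitochondrial import factor. *Sdhb*, the iron-sulphur subunit, had the widest region of the complex, 8500 bp, with no other gene's TSS in it, and *Sdhc*, the other anchor, had 4480 bp.

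Complex III likewise had 2 of 4 genes in the list. *Uqcrc1* (3900 bp) and *Uqcrc2* (4820 bp), the core proteins, were called, and *Uqcrfs1* (3040 bp), the Rieske iron-sulphur protein, and *Cyc1* (3500 bp), cytochrome c1, were not. No other gene's TSS lay in any of these 4 regions. *Cycs*, the mobile electron carrier cytochrome c, had a narrow region of 2600 bp and was in neither list.

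In complex IV, the cytochrome c oxidase, counted without *Ndufa4*, only *Cox5a* (5800 bp) was called, 1 of 6 (16.7%, 3.01-56.4). *Cox4i1* had the widest region of the complex, 9620 bp (chr8:123187986-123197605), which covered 91.5% of the gene and also held the TSS of its neighbour *Cox4nb*. *Cox6c* had 4480 bp and *Cox5b* 2880 bp. The muscle isoforms *Cox6a2* and *Cox7a1* had narrow regions of 2620 and 1880 bp, the latter the narrowest of all 44.

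Complex V had 2 of 5 genes called at the TSS. *Atp5b*, the catalytic beta subunit, had a called region of 5520 bp over its main TSS and a second of 11580 bp, starting 4397 bp downstream, over TSSs of its non-coding transcripts and of *Baz2a*. The region of *Atp5d*, the delta subunit (chr10:79603386-79632285), reached 28083 bp downstream and held the TSSs of *Cirbp*, *Dos* and *Midn* as well. *Atp5a1* (5600 bp), *Atp5c1* (8660 bp) and *Atp5o* (4100 bp) were outside the list at the TSS. *Atp5o* was counted for any decreased H3K4me2 through a 4880-bp region 240287 bp from its TSS, which holds the *Donson* TSS and falls in an annotated read-through body of 247290 bp.

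**Figure D2:**
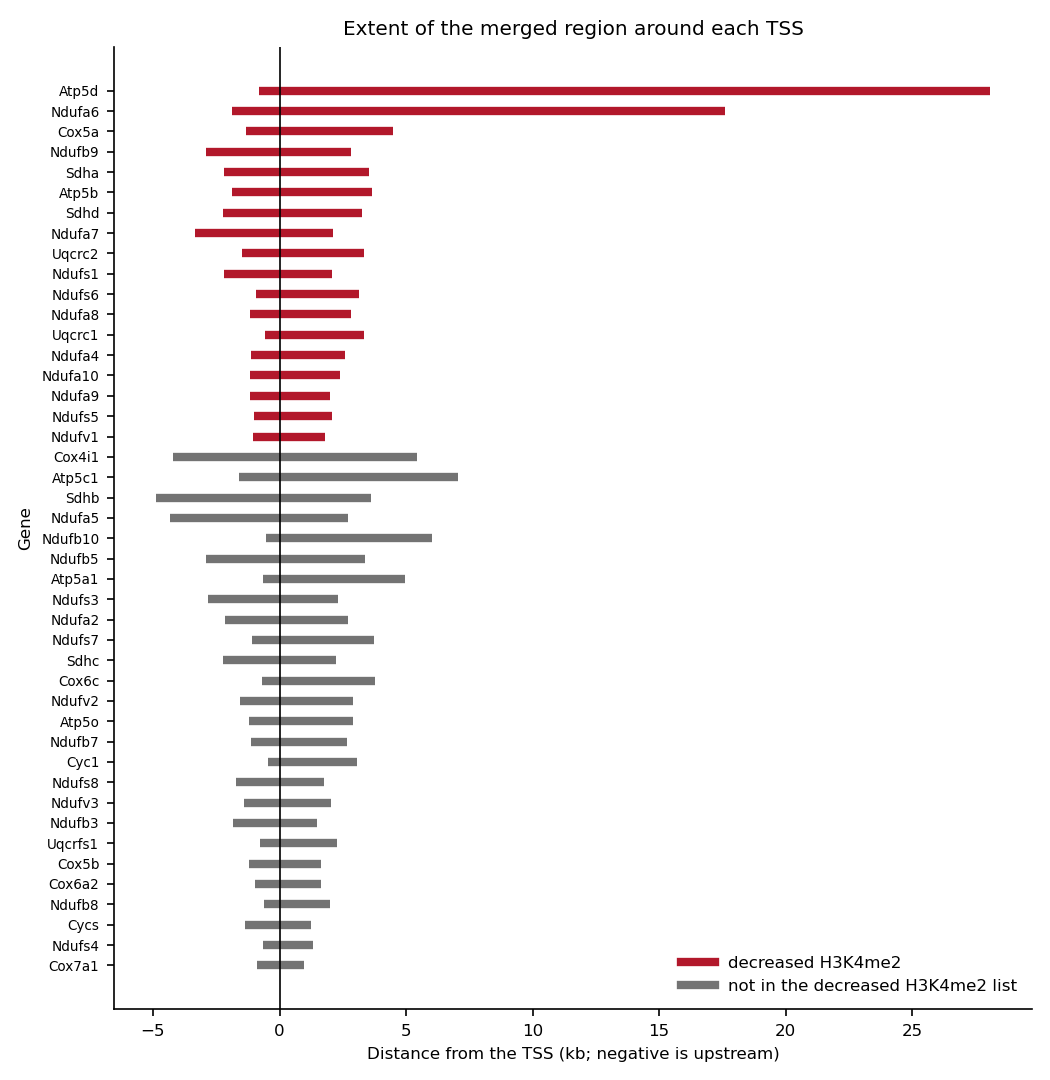
Extent in kb of the merged region around the main TSS (0) of each of the 44 genes, drawn in the direction of transcription, with the 18 called for decreased H3K4me2 in red above the 26 others in grey. Most regions reach farther downstream than upstream, and those of *Atp5d* and *Ndufa6* run 28083 and 17595 bp downstream of the TSS, past the end of each gene.

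Decreased H3K4me2 was concentrated at the TSS regions. Of the 46 assigned regions that held a TSS of one of these genes, 19 were called (41.3%, 28.3-55.7), and of the 188 that did not, 2 were (1.06%, 0.292-3.8), namely those of *Ndufv2* and *Atp5o*. With its read-through body *Atp5o* held 69 of the 234 assigned regions. With the body of the longest coding transcript in place of the gene body 169 regions were assigned, 11.8% of them called, beside 8.97% of the 234. Over coding genes, 22.5% of the assigned regions that held a TSS were called, and 0.695% of those that did not. Of the 188 regions, 103 were narrower than 500 bp. The regions extended a median of 1270 bp upstream and 2768 bp downstream of the main TSS, with the downstream side longer for 36 of 44 genes (81.8%), beside 73.6% of coding genes. This held alike for called genes (15 of 18) and the others (21 of 26).

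The share of genes called rises with region width, so the 44 genes were set beside other coding genes of like TSS-region width. Over 10 width classes the share of other genes with decreased H3K4me2 went from 2.98% (60-1360 bp) to 47.4% (8760 bp and above). At the shares of their own classes, 14.3 of the 44 genes (32.6%) would have been called, and 18 were, a ratio of 1.26. The 32.6% lay inside the interval of the 44 genes, 27.7-55.6, and the difference was not tested. No gene of the 44 was in the narrowest class.

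**Figure D3:**
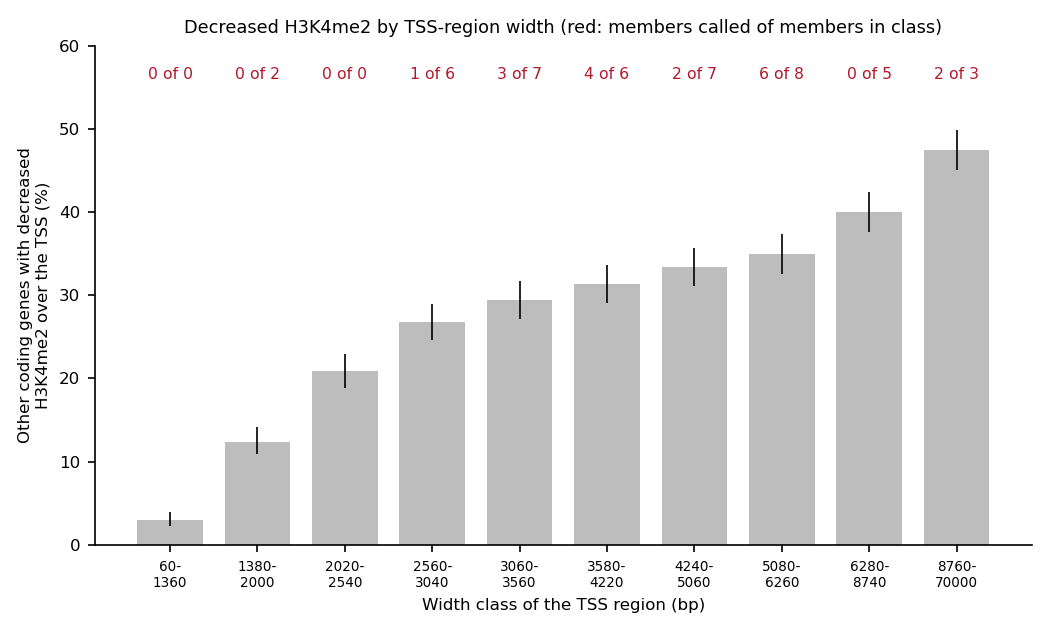
Share in percent of other coding genes with decreased H3K4me2 over the TSS in each of 10 classes of TSS-region width (bars, 95% Wilson intervals), with the number of the 44 genes called of those in the class in red above. The bars go from 2.98% to 47.4%, while the genes called number 6 of 8 at 5080-6260 bp and 0 of 5 at 6280-8740 bp.

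The calls among the 44 did not follow width in the same steady way. In the class of 5080-6260 bp, 6 of 8 genes were called (*Ndufa7*, *Ndufb9*, *Sdha*, *Sdhd*, *Cox5a* and *Atp5b*), where 34.9% of other genes were. In the next class, 6280-8740 bp, none of 5 was called (*Ndufa5*, *Ndufb5*, *Ndufb10*, *Sdhb* and *Atp5c1*), where 40% of other genes were. These are counts of a few genes, and the classes were not compared by a test.

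By complex, called genes and the number at class shares were 11 and 7.73 for complex I, 2 and 1.43 for complex II, 2 and 1.21 for complex III, 1 and 1.82 for complex IV and 2 and 1.89 for complex V. Complex IV was the only one of these 5 below its class shares. The interval of every complex covered the 29.2% of coding genes.

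A further 39 genes for other subunits of the same complexes, with the ATP synthase inhibitor *Atpif1* among them, were listed separately. This list too was chosen with earlier results of these data known. All 39 had a TSS inside a merged region, 18 had decreased H3K4me2 over it (46.2%, 31.6-61.4), beside 12.2 at class shares, and none had decreased H3K4me1 there. The widest such regions were those of *Cox6b2* (15460 bp), a testis isoform of complex IV, *Atpif1* (8520 bp), *Atp5g2* (8060 bp), a c-ring gene, and *Atp5h* (7740 bp), a stalk subunit. The order of the complexes changed when these genes were counted in.

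For complex V, 9 of the 11 further genes were called, so that 11 of 16 in all had decreased H3K4me2 (68.8%, 44.4-85.8), and this interval lay above the 29.2% of coding genes. The 16, *Atpif1* among them, had a median TSS region of 5560 bp, beside 3580 bp for coding genes. As a group they were not set beside class shares of like width. No test was made of this difference, and complex V is 1 of 5 complexes looked at. The 2 further genes not called were *Atp5e* (3460 bp) and *Atp5g1* (3440 bp). For complex IV, 4 of 10 further genes were called, giving 5 of 16 (31.2%, 14.2-55.6), near the share of coding genes. Complex I came to 14 of 37 (37.8%, 24.1-53.9), complex III to 4 of 9 (44.4%, 18.9-73.3), and all 83 genes to 36 (43.4%, 33.2-54.1).

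**Figure D4:**
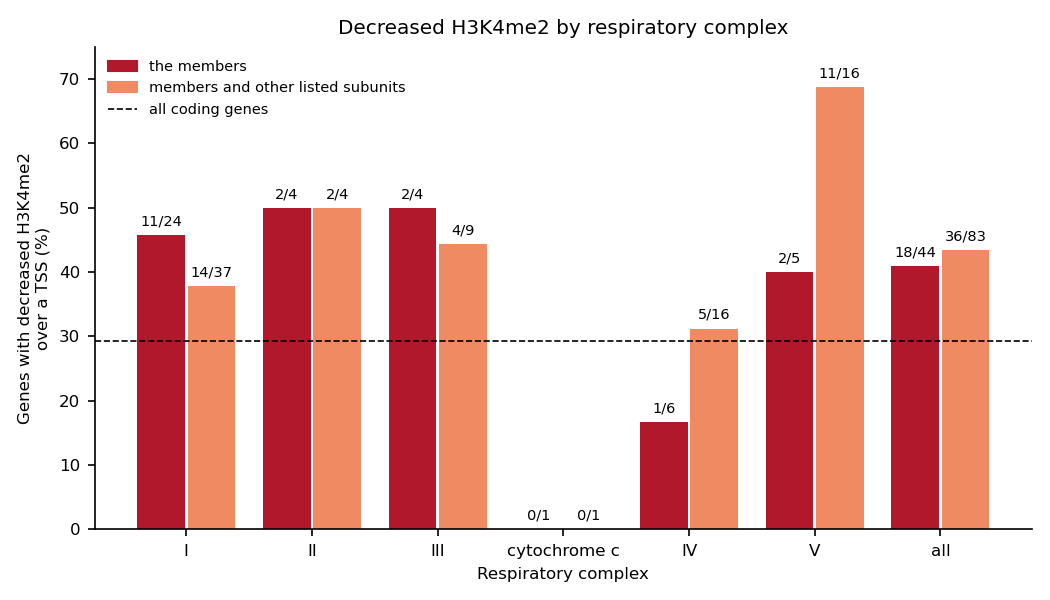
Share in percent of genes with decreased H3K4me2 over a TSS, by respiratory complex and over all, for the 44 genes (dark red) and for these with the 39 further listed genes (light red); the dashed line is the 29.2% of coding genes, and labels give called over total genes. Complex V stands at 2 of 5 among the 44 and at 11 of 16 with the further genes, and complex IV at 1 of 6 and 5 of 16.

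Complex IV subunits come in isoform pairs used by different tissues, and a comparison of the pairs was chosen after their values were seen. *Cox6a2* and *Cox7a1*, the isoforms of heart and skeletal muscle, were outside the H3K4me2 list with regions of 2620 and 1880 bp. Their widely expressed counterparts *Cox6a1* and *Cox7a2*, from the further list, had wider regions of 3800 and 4140 bp and were in it. The muscle isoform *Cox8b* (2560 bp) and its counterpart *Cox8a* (5380 bp) differed in width in the same direction, but neither was called. The pair of *Cox6b1* (2220 bp, not called) and the testis isoform *Cox6b2* (15460 bp, called) went the other way. *Cox4i1* (9620 bp) and its counterpart *Cox4i2* (2540 bp) were both outside the list. Of the 39 further genes, 14 had a TSS region that also held a TSS of another gene. Which isoforms this concerns is not given here, so a width or call may not belong to the isoform alone.

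Many of these genes share their TSS region with a neighbour. The region held a TSS of another gene for 19 of the 44 (43.2%), beside 20.3% of coding genes, and sharing was seen for 3 of 4 genes of complex II and 13 of 24 of complex I, and for none of complex III. Shared regions of the 44 were called in 9 of 19 cases and had a median of 5480 bp, and single ones in 9 of 25 with a median of 3540 bp. Coding genes showed the same order, 37.9% called when shared and 25.5% when single. For single regions of the 44, 9 were called beside 7.24 at class shares, a ratio of 1.24.

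Small genes lay wholly inside their region in 5 cases (11.4%, beside 6.48% of coding genes): *Ndufa2*, *Ndufa6*, *Ndufb10*, *Cyc1* and *Cox6a2*. Of these only *Ndufa6* was called. For all 5, a region over the TSS is also a region over the whole transcribed unit.

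The promoters of these genes were examined in a window from 250 bases before to 50 bases after the TSS. Their median GC content was 56.5% and their median ratio of observed to expected CpG dinucleotides 0.827, beside 60.3% and 0.721 for coding genes with a marked TSS. The CpG ratio ranged from 0.13 at *Cox6a2* to 1.14 at *Cox5a*. No called gene had a ratio below 0.631, the value of *Atp5d*. The medians of the 18 called and the 26 other genes were close, 0.817 and 0.827.

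Quartiles of the CpG ratio over coding genes with a marked TSS were formed after these values were seen. In the lowest quartile (ratio up to 0.47) lay 6 of the 44, *Cox6a2*, *Cox7a1*, *Ndufa5*, *Ndufb10*, *Ndufs8* and *Sdhb*, and none was called, beside 11.9% of other coding genes there. Their median region, 5010 bp, was wider than the 2440 bp of other genes of that quartile. In the next quartile 7 of 10 were called, beside 24% of other genes, and in the upper 2 quartiles 5 of 14 and 6 of 14 were called, beside 34.4% and 41.6%. Among other coding genes the share called increased with the CpG ratio and so did the median width, from 2440 to 4520 bp, so these properties cannot be told apart here.

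**Figure D5:**
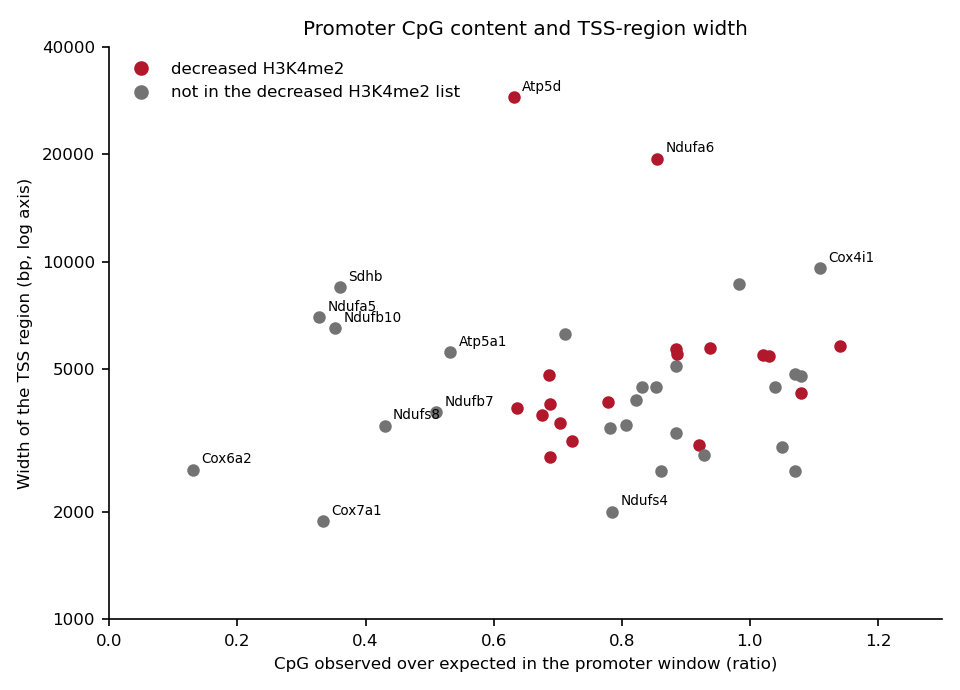
Width in bp (log axis) of the TSS region of each of the 44 genes against the observed to expected CpG ratio of its promoter window, with red points for decreased H3K4me2 and grey points for the rest. All red points lie at a ratio of 0.631 or above, and the wide regions of *Sdhb*, *Ndufa5* and *Ndufb10* lie to the left of them in grey.

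NRF1, a transcription factor known for activating respiratory chain genes, binds the palindrome around the core CGCANGCG. This core was present on either strand in 12 of the 44 windows (27.3%, 16.3-41.8), beside 10.6% of all coding promoters of the same length and 14.7% of those with a marked TSS. Of the 18 called genes 8 held it (*Ndufs5*, *Ndufa6*, *Ndufa7*, *Ndufa8*, *Sdha*, *Sdhd*, *Uqcrc1* and *Atp5d*; 44.4%, 24.6-66.3), and of the 26 others 4 did (*Ndufs7*, *Ndufb10*, *Cycs* and *Atp5c1*; 15.4%, 6.15-33.5). *Sdha* held 3 matches in the longer window and *Uqcrc1* 2. The intervals of called and other genes overlap, and the difference was not tested. No split by call was made for coding genes as a whole, among which the share called increased with the CpG ratio.

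The other motifs were set beside the same 2 backgrounds, all promoters and those with a marked TSS. The nuclear receptor element AAGGTCA, the letters bound by oestrogen-related receptors, was in 3 windows (6.82%), those of *Ndufs1*, *Ndufs5* and *Sdhd*, all called, beside 3.85% and 3.19%. The YY1 core was in 6 (13.6%, beside 6.86% and 6.55%), 1 of them called. The ETS core was in 5 (11.4%, beside 10.9% and 14.6%), 3 of them called. The CCAAT box was in 14 (31.8%, beside 37.6% and 36.8%), 4 of them called. The Sp1 box was in 21 (47.7%, beside 44.6% and 60.5%), 9 of them called. These counts of called genes are small and stand beside 40.9% called among all 44. The share called was not computed for coding genes with each motif, and no link between motif and call was tested.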

How the data were processed

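Per the labels and the study's methods, E11.5 hearts made up 3 pools of 30 for each genotype, split into an input and 3 immunoprecipitations. The authors merged peaks of all 3 marks and replicates into 1 list of region starts and ends (bp), and deposited it with the subsets they called lower in mutants, for which the stated threshold is a false discovery rate below 0.1. The submitters' processing notes name CASAVA 1.8.2, FastQC, Bowtie2, Bowtie and SAMtools without roles. The study places its analysis pipeline in supplementary methods, which were not used here, so the peak caller and the test behind the calls are not given in the sources used here, and the lists hold no depth. The deposited H3K4me2 list is longer than the study's text states, so its threshold is not certain. All decreased regions matched a merged region exactly, and the last region of 21 of 21 chromosomes ended within the mm9 length.

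Groups came from sample titles. Regions overlapping a GENCODE vM1 gene body by at least 1 base or lying within 5 kb of any of its TSSs were assigned to the gene, with Python 3.11.15, numpy 2.4.6 and scipy 1.17.1. The TSS region is the merged region at the start of the transcript with the longest coding sequence, or failing that at another TSS. Width classes are 10 classes of equal size over coding genes with a marked TSS. Assignment was tested on simulated data. The members and lists were chosen with earlier results of these data known. Genes were named if they had a decreased region, stood among the 3 widest or narrowest TSS regions or at the ends of a complex, were *Cox6a2* or *Cox7a1*, headed another list (4 widest called regions) or shared a TSS region with a named gene. All others were chosen after their values were seen, which includes the remaining members. Alternatives varied the TSSs, window, overlap, minimum width, shared regions and width classes. A wide region can hold more reads and so be easier to call. Some genes sharing a TSS region with a named gene are not reported here.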

Additional observations from a re-analysis of the deposited data

How the results depend on the processing

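No paired analysis was possible because the deposited lists carry no value per replicate; for the same reason no replicate could be left out in turn. Of 46 alternative values of 8 results, 33 stayed within 1.5 times the count reported or within the interval of the share. Some of the 33 could not have changed. The count of 18 genes with a TSS in decreased H3K4me2 was the same with other choices of TSS and with regions of at least 500 bp. These alternatives could not change it. All 18 were called at the main TSS region, and no TSS region of the 44 was narrower than 1880 bp. For the same reasons they could not change the 44 genes with a marked TSS or the median width of 4380 bp. Nor could they change the 0 genes with decreased H3K4me1 over a TSS. The ratio of 1.26 to class shares was 1.24 with 20 width classes. It was 1.26 with the TSS of the longest coding transcript only, where the 18 called genes could not change. Leaving out regions with a TSS of another gene gave 25 genes with a TSS inside a region, 9 with decreased H3K4me2 there (coding genes 25.9%), 10 with any decreased H3K4me2, 1 with any decreased H3K4me1 and 5.1% of 196 assigned regions with decreased H3K4me2. This alternative removes 19 TSS regions by construction, and its ratio to class shares was 1.24.

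The count of 2 genes with any decreased H3K4me1 is too small to be stable. It was 1 with the TSS of the longest coding transcript only, 1 with TSSs of protein-coding transcripts only, 1 with a window of 1 kb, 1 with the TSS window alone, 1 when 50% of a region had to lie inside, and 4 with a window of 10 kb. The share of assigned regions with decreased H3K4me2, 8.97%, was 15.3% for regions of at least 500 bp and 16.4% for the TSS window alone, since both drop small regions away from TSSs. With the body of the longest coding transcript, added after seeing the data, *Atp5o* lost its distant region and 19 genes had any decreased H3K4me2. The lists hold no depth, so the size of any decrease, and decreases too small to be called, could not be read.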

Other observations

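Other lists of mitochondrial genes were named by hand as textbook groups, with earlier results of these data known. They had TSS regions with decreased H3K4me2 as follows. Of 16 genes of the tricarboxylic acid cycle and pyruvate oxidation, which feed electrons to the respiratory chain, 8 were called (50%, 28-72), beside 5.14 at class shares. The widest called regions were those of *Cs* (13820 bp), citrate synthase, *Ogdh* (6600 bp) and *Dlst* (5200 bp), both of the oxoglutarate dehydrogenase complex, and *Idh3g* (4780 bp), of isocitrate dehydrogenase.

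Of 30 mitochondrial ribosomal protein genes, 13 were called (43.3%, 27.4-60.8), beside 8.2 at class shares, led by *Mrps18b* (8160 bp), *Mrps18a* (5140 bp), *Mrpl20* (3860 bp) and *Mrpl18* (3760 bp). Of 25 assembly factors of the respiratory complexes, 9 were called (36%, 20.2-55.5), beside 7.26, with *Sdhaf2* (4940 bp), *Cox11* (4260 bp), *Sco1* (3860 bp) and *Ttc19* (2980 bp) the widest. The assembly factors lay nearest to the 29.2% of coding genes.

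Among 17 regulators of mitochondrial genes, 8 had a TSS in decreased H3K4me2 (47.1%, 26.2-69), beside 29.2% of coding genes. By the main TSS region, 7 were called beside 5.83 at class shares, a ratio of 1.2, the lowest of these lists. The 7 included *Nrf1* (4940 bp), the factor whose core motif was counted above, the ETS-family factor *Gabpa* (5800 bp) and its partner *Gabpb1* (5280 bp). *Yy1*, also among them, had the widest called region of the list at 13620 bp. The coactivator *Pprc1* had the next widest, 12320 bp, at another TSS, and its main TSS region of 6200 bp was not called. None of the 16, 30, 25 or 17 genes had decreased H3K4me1 over a TSS. Any region with decreased H3K4me1 was found for 3 of the 17 regulators (17.6%, 6.19-41), beside 7.08% of coding genes: *Esrrg*, an oestrogen-related receptor, had 4 such regions, *Esrrb* 2 and *Ppargc1b*, a coactivator, 1. The lists share no test, and their intervals overlap one another.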
